A study of Mus musculus with 10 samples.

Results

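The genes described here are 9 members of a signalling module that links neuronal stimulation to transcription: the salt-inducible kinases Sik1, Sik2 and Sik3, the CREB-regulated transcription coactivators Crtc1, Crtc2 and Crtc3, and the transcription factors Creb1, Crem and Atf1. They were taken by symbol from a table of 25050 mouse genes, each symbol heading 1 row, and all 9 were among the 14526 genes with enough counts to be tested. The libraries came from whole brains of FVB/NJ mice killed with CO2 and were made from polyadenylated RNA. Abcc5 knockout mice (Abcc5-/-) gave 5 brains and wildtype mice (Abcc5+/+) gave 5, and each library is named here by its group and replicate. ABCC5 is a membrane transporter of organic anions. The labels give no age, no sex and no description of the deleted part of Abcc5.

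In resting cells the salt-inducible kinases, which the kinase LKB1 switches on, phosphorylate the CRTC proteins, and 14-3-3 proteins then hold these in the cytoplasm. Cyclic AMP, through protein kinase A, inhibits the SIKs, and calcium, through the phosphatase calcineurin, frees the CRTCs, which enter the nucleus and bind CREB on its DNA element. CREB itself is activated by phosphorylation, which recruits the acetyltransferases CBP and p300. Sik1 is known as a CREB target, so that its product closes a negative feedback loop on the CRTCs, a loop described for neurons and for the response of the circadian clock to light.

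The CREB element has the palindrome TGACGTCA as its full form and TGACG as its short form, which reads as CGTCA on the other strand. The RefSeq promoter table (GRCm38.p6) matched 6 of the 9 genes: Sik2, Sik3, Crtc1, Crtc3, Creb1 and Atf1. The short form was searched on both strands in the 250 bases before each RefSeq start, where a full form counts as overlapping short forms. It occurred in 2 of the 6 windows, 3 times in Sik3 and once in Atf1, and in 17.8% of all 32851 promoter windows of that length. The full form was in none of the 6 and in 1.55% of all. The windows of Sik2 and Creb1 are shown because these genes were lower in knockout brains, and those of Sik3 and Atf1 because they hold the short form, in capitals. Each is printed 5′ to 3′ and ends before the first base of the gene in the GENCODE M21 annotation. Window positions are in GRCm38.p6 and do not match the deposited gene coordinates given below. Deposited Creb1 starts at 64579378, while its window ends at 64532644, so distances between such positions have no meaning.
Sik2 (chr9:51009074-51009323, minus strand): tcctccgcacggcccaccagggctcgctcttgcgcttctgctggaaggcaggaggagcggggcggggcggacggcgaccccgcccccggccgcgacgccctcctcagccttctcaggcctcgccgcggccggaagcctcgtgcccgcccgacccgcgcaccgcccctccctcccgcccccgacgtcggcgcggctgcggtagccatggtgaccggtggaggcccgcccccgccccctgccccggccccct
Creb1 (chr1:64532554-64532644, plus strand): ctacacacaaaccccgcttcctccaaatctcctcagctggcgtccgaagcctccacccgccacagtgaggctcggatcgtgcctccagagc
Sik3 (chr9:46012570-46012819, plus strand): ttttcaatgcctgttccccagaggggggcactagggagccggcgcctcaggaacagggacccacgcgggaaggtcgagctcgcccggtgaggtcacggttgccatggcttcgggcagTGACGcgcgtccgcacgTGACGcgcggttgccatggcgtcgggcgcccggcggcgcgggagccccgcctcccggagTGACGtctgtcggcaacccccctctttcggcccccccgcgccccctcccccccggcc
Atf1 (chr15:100227609-100227818, plus strand): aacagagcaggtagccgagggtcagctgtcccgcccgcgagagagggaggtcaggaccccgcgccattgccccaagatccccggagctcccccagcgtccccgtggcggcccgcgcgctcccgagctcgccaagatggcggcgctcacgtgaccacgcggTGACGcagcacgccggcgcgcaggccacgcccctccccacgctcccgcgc
In Sik3 the short forms begin 133, 116 and 57 bases before the RefSeq start, and in Atf1 90 bases before it. A match describes letters and is no evidence of binding, and an absent match covers this window alone.

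Levels are counts scaled to depth by TMM, as CPM, and are given as mean ± SD over 5 brains. Abcc5 itself averaged 218.4 ± 5.94 CPM in knockout and 310.5 ± 12.6 CPM in wildtype brains (SD, n = 5 each), so it was reduced and not absent. Total counts ran from 7731294 to 23588335 per library, and knockout replicates 2 and 4 and wildtype replicate 1 were the deepest, with at least 19795743 counts. Brain markers were present in all libraries, but 8 cerebellar markers summed to 88.9 CPM in knockout replicate 3, against 1055 to 1166 CPM in the other knockout brains and 997.3 to 1065 CPM in wildtype brains. The sum of 5 microglial markers was 180.1 to 218.3 CPM in knockout and 155.1 to 171.7 CPM in wildtype brains, without overlap, while none of the 5 passed the edgeR test described next. Its part in the differences described here was not tested. The summed markers of neurons, astrocytes, oligodendrocytes, endothelial cells, blood, meninges and choroid plexus overlapped between the groups. In whole brain, fewer cells that express a gene and less RNA per cell cannot be told apart.

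Of the 9 genes, 3 fell in knockout brains and none rose: Sik1 most, then Sik2 and Creb1. The test was edgeR's quasi-likelihood test over all 14526 genes with Benjamini-Hochberg adjustment, at an adjusted p of 0.05. By this rule 0.964% of all tested genes were lower and 0.213% higher in knockout, 1.18% in all. In the same 3 genes every knockout brain lay below every wildtype brain, which held for 2.64% of all tested genes, and the reverse for 1.54%. The log2 fold change (knockout over wildtype) was negative for 8 of the 9, with a median of -0.11, and the median of all tested genes was 0.0042. The 9 genes were chosen with earlier results of these data known, so these counts are a description and no independent evidence.

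**Figure D1:**
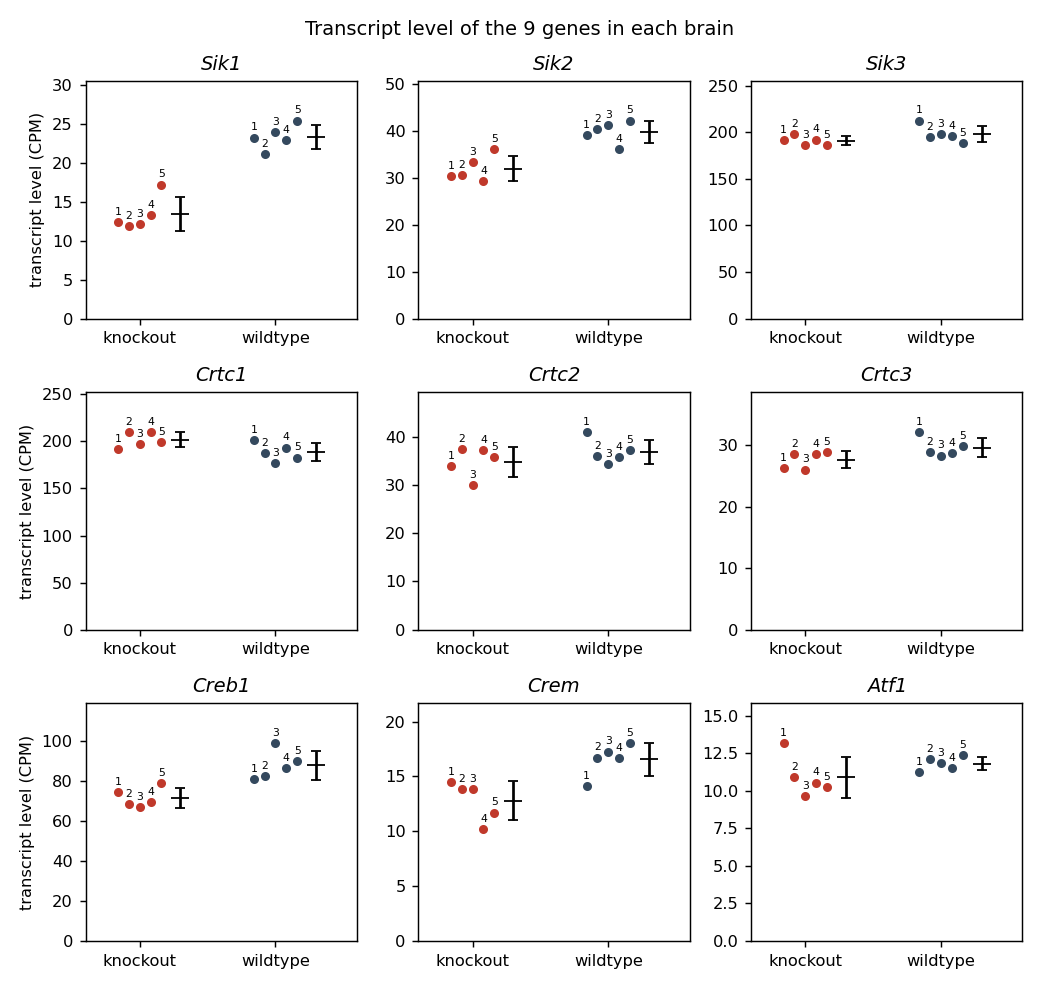
Transcript level in CPM (vertical axes, each from 0) of each gene in the 5 knockout brains (left, red) and the 5 wildtype brains (right, dark), with the replicate number above each point and the mean ± SD as a bar. Sik1, Sik2 and Creb1 do not overlap between the groups, and the highest knockout value of Sik1, 17.2 CPM, is replicate 5.

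Sik1, the SIK that is itself induced by stimulation (ENSMUSG00000024042, chromosome 17, 31981193 to 31992737 in the deposited coordinates, whose build is not given in the sources used here), had 12.4, 11.9, 12.1, 13.3 and 17.2 CPM in knockout replicates 1 to 5. In wildtype replicates 1 to 5 it had 23.2, 21.1, 23.9, 22.9 and 25.4 CPM. Replicate 5 stood above the other 4 knockout brains but below every wildtype brain. The means were 13.4 ± 2.19 CPM in knockout and 23.3 ± 1.56 CPM in wildtype brains (SD, n = 5 each), a log2 fold change of -0.82 (SE 0.091, edgeR adjusted p 0.000248). Its 95% interval on the log2 scale ran from -1.01 to -0.62. Sik1 had the 12th smallest p of all tested genes and passed in each of the 10 fits that left out 1 library.

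Sik2, a SIK that acts on CRTC1 in neurons, fell less (ENSMUSG00000037112, chromosome 9, 50700906 to 50817178). It had 30.4, 30.6, 33.3, 29.3 and 36.1 CPM in knockout replicates 1 to 5, against 39.1, 40.3, 41.2, 36.1 and 42.2 CPM in wildtype replicates 1 to 5. The groups met closely, since knockout replicate 5 (36.07 CPM) lay just under wildtype replicate 4 (36.14 CPM). The log2 fold change was -0.33 (SE 0.065, edgeR adjusted p 0.0258). The call was lost without knockout replicates 1, 2 or 4 (edgeR adjusted p 0.0668, 0.0812 and 0.0801) and without wildtype replicates 2, 3 or 5 (0.0663, 0.0705 and 0.08). Sik2 overlaps Ppp2r1b on the other strand by 1429 bases in GENCODE M21, and the library kit does not mark strand. Ppp2r1b, a scaffold subunit of protein phosphatase PP2A, stood at -0.21 on the log2 scale and missed the threshold (edgeR adjusted p 0.166). The overlap is between gene bounds, and whether it falls in exons of both genes was not checked. Reads of any shared exon bases cannot be assigned to either gene.

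Sik3, which is known in mice for its part in sleep need, had 185.8 to 197.9 CPM in knockout brains and 188.4 to 212.4 CPM in wildtype brains, so the groups overlapped. It missed the threshold, at a log2 fold change of -0.053 (95% interval -0.14 to 0.037, edgeR adjusted p 0.594).

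Whether Sik1 changed by more than the other 2 kinases was tested on the ratio of their CPM within each brain. The log2 ratio of Sik1 to Sik2 was -1.29, -1.35, -1.45, -1.14 and -1.06 in knockout replicates 1 to 5. In wildtype replicates 1 to 5 it was -0.75, -0.93, -0.78, -0.65 and -0.73, above every knockout brain. The difference in means was -0.49 on the log2 scale. For Sik1 to Sik3 the log2 ratio averaged -3.83 ± 0.239 in knockout and -3.08 ± 0.127 in wildtype brains (SD, n = 5 each), a difference of -0.75, also without overlap. Both had a two-sided exact permutation p of 0.00794, the smallest that 5 brains against 5 allow, and 0.0119 after adjustment over the 3 ratios compared. Sik1 thus fell relative to both other SIKs by this test. Since Sik3 had a log2 fold change of -0.053, the ratio to Sik3 largely restates the fall of Sik1.

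**Figure D2:**
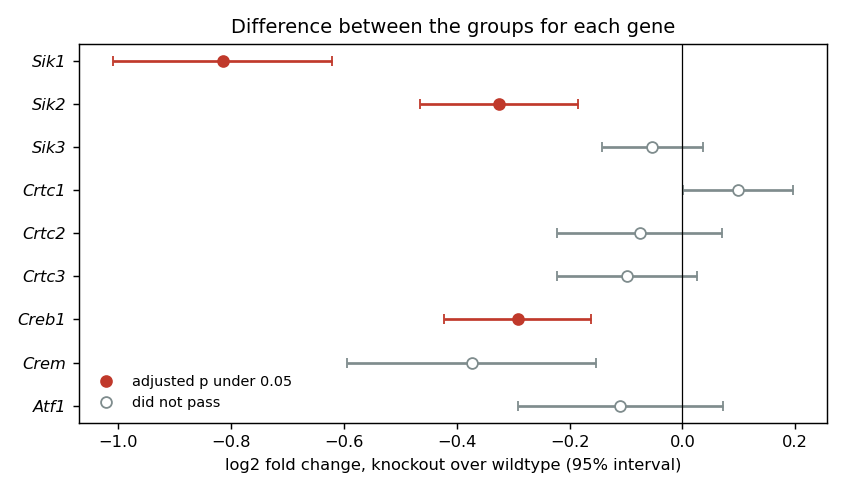
Log2 fold change of each gene, knockout over wildtype (horizontal axis), with its 95% interval, filled where the adjusted p was under 0.05. Sik1 stands at -0.82, Sik2 at -0.33 and Creb1 at -0.29, and Crtc1 is the one gene above 0, at 0.099.

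**Figure D3:**
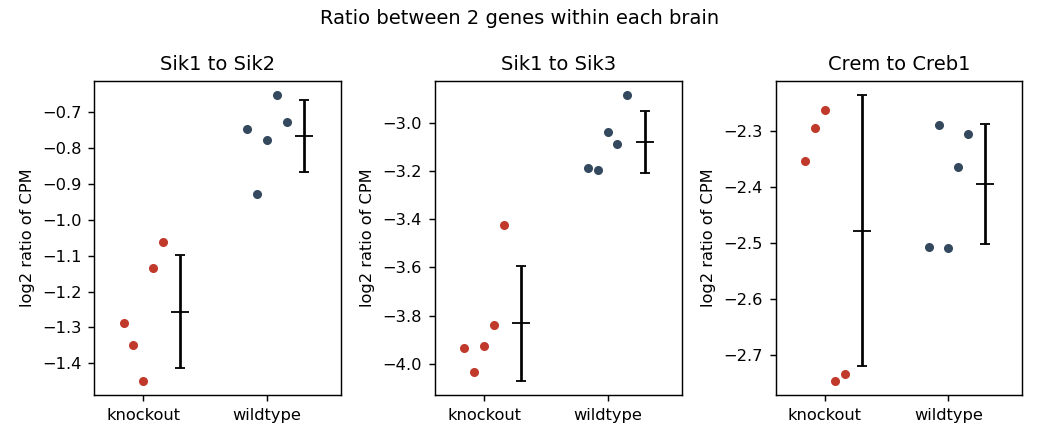
Log2 ratio of the CPM of 2 genes within each brain (vertical axes, not from 0), knockout left and wildtype right, with mean ± SD. The ratios of Sik1 to Sik2 and of Sik1 to Sik3 do not overlap between the groups, and that of Crem to Creb1 does.

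None of the 3 coactivators passed by edgeR, and 1 of them had an unadjusted p under 0.05, as 14.8% of all tested genes did. DESeq2 and limma-voom called none either. Crtc1, the CRTC most typical of neurons, had 191.8, 209.9, 197.4, 210.1 and 199.4 CPM in knockout replicates 1 to 5 and 201.4, 187.3, 176.8, 193.2 and 182.7 CPM in wildtype replicates 1 to 5. Its groups overlapped, although 2 knockout brains lay above every wildtype brain. The log2 fold change was 0.099 (95% interval 0.0015 to 0.20, edgeR adjusted p 0.33). Crtc2, best known from glucose production in liver, averaged 34.8 ± 3.10 CPM in knockout and 36.9 ± 2.52 CPM in wildtype brains (SD, n = 5 each; log2 fold change -0.075, 95% interval -0.22 to 0.071). Crtc3, known in mice from fat tissue, averaged 27.7 ± 1.39 CPM in knockout and 29.6 ± 1.56 CPM in wildtype brains (log2 fold change -0.098, 95% interval -0.22 to 0.027). The lower bound of the change was -14.3% for each of these 2 genes. By gene bounds Crtc3 overlaps Gm44931 on its own strand and Gm15880 on the other.

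Among the factors, Creb1 fell. Creb1 encodes CREB, the activator that the CRTCs bind (ENSMUSG00000025958, chromosome 1, 64579378 to 64651121). It had 74.4, 68.4, 66.9, 69.2 and 78.7 CPM in knockout replicates 1 to 5, against 81.0, 82.2, 98.9, 86.3 and 89.8 CPM in wildtype replicates 1 to 5. Wildtype replicate 3 was the highest and knockout replicate 5 again the highest of its group. The log2 fold change was -0.29 (SE 0.061, edgeR adjusted p 0.0303). The call was lost without knockout replicates 1, 2 or 4 (edgeR adjusted p 0.0569, 0.096 and 0.0836) and without wildtype replicates 3, 4 or 5 (0.0763, 0.0825 and 0.0894).

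Crem, whose internal promoter makes the inducible repressor ICER, had a larger difference than Creb1 with a wider error. It had 14.4, 13.8, 13.8, 10.2 and 11.7 CPM in knockout replicates 1 to 5, against 14.1, 16.7, 17.3, 16.6 and 18.1 CPM in wildtype replicates 1 to 5. The groups overlapped through wildtype replicate 1 and knockout replicate 1. The log2 fold change was -0.37 (SE 0.104, 95% interval -0.60 to -0.15) and did not pass (edgeR adjusted p 0.101). The table gives 1 count per gene, so reads of the ICER form cannot be told from those of the other Crem forms. By gene bounds Crem overlaps Gm6225 on the other strand. The log2 ratio of Crem to Creb1 averaged -2.48 ± 0.241 in knockout and -2.40 ± 0.107 in wildtype brains (SD, n = 5 each), a difference of -0.083 with a two-sided exact permutation p of 0.516 before and after adjustment. With 1 library left out this difference ran from -0.137 to -0.016. The spread of this ratio in knockout came from replicates 4 and 5, at -2.75 and -2.73, while the other 3 lay between -2.35 and -2.26.

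Atf1, a close relative of CREB that pairs with it, was the least counted of the 9, with 73 to 249 counts per library. It averaged 10.9 ± 1.36 CPM in knockout and 11.8 ± 0.458 CPM in wildtype brains (SD, n = 5 each), which missed the threshold at a log2 fold change of -0.11 (95% interval -0.29 to 0.072, edgeR adjusted p 0.584). Knockout replicate 1 was the highest of all 10 libraries, at 13.2 CPM, and the other 4 knockout brains were below every wildtype brain.

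The authors' deposited table gives the same genes for an adjusted p under 0.05: log2 fold changes of -0.83 for Sik1, -0.33 for Sik2 and -0.29 for Creb1, with adjusted p-values of 0.00011, 0.0264 and 0.0412. For Crem the authors' deposited table gives -0.38 and 0.156, and for the other 5 genes adjusted p-values from 0.466 to 0.789.

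Levels of different genes can be set side by side only per length, here as CPM per kilobase of merged GENCODE M21 exons, which understates genes with long rarely used exons. Sik3 and Crtc1 led in both groups, with 20.5 ± 0.522 and 18.0 ± 0.720 CPM per kilobase in knockout brains and 21.2 ± 0.949 and 16.8 ± 0.847 in wildtype brains (SD, n = 5 each). Crtc2 and Creb1 came next in both. In knockout brains the order went on with Atf1, Sik2, Crtc3, Sik1 and Crem, and in wildtype brains with Sik1, Sik2, Atf1, Crtc3 and Crem. Sik1 was thus the eighth of 9 in knockout, at 2.60 ± 0.427 CPM per kilobase, and the fifth in wildtype brains, at 4.54 ± 0.305. Library ranges of neighbours overlapped for Atf1 and Sik2, Crtc3 and Sik1, and Sik1 and Crem in knockout, and for Sik1 and Sik2, Sik2 and Atf1, and Crtc3 and Crem in wildtype brains. All other neighbours were apart.

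Knockout replicate 5 had the highest level of its group for Sik1, Sik2, Crtc3 and Creb1, but the lowest for Sik3. The coefficient of variation of Sik1 was 16.4% among knockout and 6.7% among wildtype brains. In the wildtype group, replicate 1 had the highest Sik3, Crtc1, Crtc2 and Crtc3 and the lowest Creb1, Crem and Atf1.

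**Figure D4:**
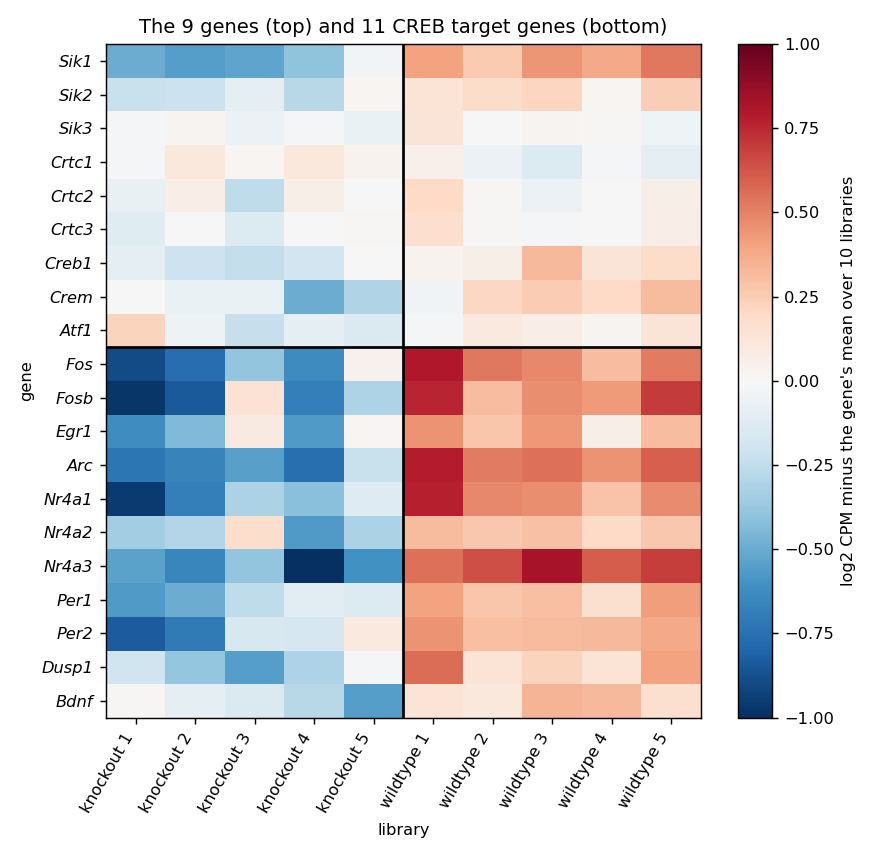
Log2 CPM minus each gene's mean over the 10 libraries (colour), for the 9 genes above the line and the 11 CREB target genes that fell below it, with the 5 knockout libraries left of the 5 wildtype ones. Sik1 and Creb1 are below their means in all 5 knockout libraries and above them in all 5 wildtype ones, as are Arc, Nr4a1, Nr4a3, Per1 and Dusp1, while Fos, Fosb, Egr1, Nr4a2, Per2 and Bdnf are each above their mean in at least 1 knockout library.

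Genes whose profile over the 10 libraries was most like that of Sik1 were sought by the root-mean-square difference of log2 CPM centred on each gene's mean, over 14507 genes with at least 1 CPM on average. The nearest were Gcnt1, a glycosyltransferase of mucin-type glycans (0.100 log2 units), Tiparp, an ADP-ribosyltransferase (0.137), Gpr3, a receptor that raises cyclic AMP (0.150), the AP-1 subunit Fosl2 (0.153) and Ccdc117 (0.154). As the measure includes the difference between the groups, it says nothing further about that difference. Of the other 8 genes of the module, Sik2 and Creb1 were the closest, 85th and 106th in that order, and Crtc1 the farthest, 9888th.

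In a list of 28 known CREB target genes, all of them tested, 11 fell and none rose by edgeR. The list's median log2 fold change was -0.17. Over all tested genes 0.964% were lower and 0.213% higher by the same rule, and the median was 0.0042. In the 7 shallower libraries alone 4 of the 11 passed: Arc, Nr4a1, Nr4a3 and Per1. Fos, Fosb, Dusp1, Nr4a2, Per2, Egr1 and Bdnf did not pass there (edgeR adjusted p 0.0543 for Fos to 0.294 for Egr1). Nr4a3, a nuclear receptor, averaged 24.0 ± 4.21 CPM in knockout and 59.8 ± 4.49 CPM in wildtype brains (SD, n = 5 each), which differ by -1.35 on the log2 scale (edgeR adjusted p 5.17e-06). On the same scale Arc, which acts at synapses, had -1.17, and Fosb and Fos, both parts of AP-1, had -1.12 and -1.07. The receptors Nr4a1 and Nr4a2 had -0.995 and -0.55, the clock genes Per1 and Per2 -0.62 and -0.68, and the phosphatase Dusp1 -0.60. Egr1, a zinc finger factor, and Bdnf, a neurotrophin, had -0.60 and -0.41 (edgeR adjusted p 0.0308 and 0.0383). Egr1 lost its call without any 1 of knockout replicates 1, 2 and 4 and wildtype replicates 1, 2, 3 and 5, Bdnf without any 1 of knockout replicates 2 and 4 and wildtype replicates 2 to 5, and Per2 without knockout replicate 2 or wildtype replicate 4 or 5. Several of these genes were known from earlier results of the same data when the list was made, so their count is a description and no independent evidence.

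The summed level of the 11 genes was 473.7, 503.2, 638.4, 525.9 and 677.5 CPM in knockout replicates 1 to 5 and 1085, 947.3, 994.8, 879.4 and 995.5 CPM in wildtype replicates 1 to 5. Knockout replicate 5, the highest for Sik1, was also the highest knockout brain here, though below every wildtype brain. By the mean log2 CPM of the 11 genes, knockout replicates 5 and 3 were close, at 5.415 and 5.394. Sik1 itself differed between them, at 17.2 and 12.1 CPM. The 11 genes were picked for being lower in these same libraries, so the gap between the groups is no further result.

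The other 17 genes of the list did not pass by edgeR. Junb, another AP-1 subunit, had a log2 fold change of -0.51 and an edgeR adjusted p of 0.0506. Among genes that stimulation also induces, Btg2 had -0.17, Gadd45b -0.11, Gem -0.19, Inhba -0.15, Nptx2 -0.014 and Rgs2 -0.16 on the log2 scale. The transcriptional regulators Cited2 and Ppargc1a had -0.12 and -0.011, and the cyclic AMP phosphodiesterases Pde4b and Pde4d 0.11 and -0.18. The neuropeptide and secretory granule genes had 0.25 for Sst, 0.17 for Pdyn, 0.11 for Penk, 0.094 for Vgf, -0.0057 for Crh and -0.018 for Scg2. Without knockout replicate 3, Junb, Rgs2 and Pde4d passed as lower (edgeR adjusted p 0.0125, 0.0432 and 0.0418). No difference between such groups within the list was tested.

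The promoter table held windows of 8 of the 11 genes that fell, and in each of the 8 at least 1 window had the short form, for Bdnf 1 of its 7 windows. Counted by window, 9 of the 15 had it, beside 17.8% of all windows, and 1, of Dusp1, had the full form, beside 1.55% of all. A count by gene cannot be set against these shares, since genes differ in their number of windows. As the list was made of known CREB targets, a high share of the short form is no independent result. Windows of the other genes of the list are not given, and a link between the short form and the fall was not tested. The windows of Fos, Fosb and Nr4a2 are shown beside those above, since they had the smallest p among the genes with a short form and at least 120 bases before the annotated gene start.
Fos (chr12:85473640-85473889, plus strand): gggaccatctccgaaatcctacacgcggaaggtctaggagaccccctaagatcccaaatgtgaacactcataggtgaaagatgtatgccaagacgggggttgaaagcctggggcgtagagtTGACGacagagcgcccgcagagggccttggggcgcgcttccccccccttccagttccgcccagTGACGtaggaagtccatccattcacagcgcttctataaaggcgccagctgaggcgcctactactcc
Fosb (chr7:19310052-19310295, minus strand): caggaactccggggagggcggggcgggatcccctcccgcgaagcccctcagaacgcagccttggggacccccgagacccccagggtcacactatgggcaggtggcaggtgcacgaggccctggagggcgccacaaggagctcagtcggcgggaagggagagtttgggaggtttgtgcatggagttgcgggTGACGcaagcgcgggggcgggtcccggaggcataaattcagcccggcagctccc
Nr4a2 (chr2:57124004-57124253, minus strand): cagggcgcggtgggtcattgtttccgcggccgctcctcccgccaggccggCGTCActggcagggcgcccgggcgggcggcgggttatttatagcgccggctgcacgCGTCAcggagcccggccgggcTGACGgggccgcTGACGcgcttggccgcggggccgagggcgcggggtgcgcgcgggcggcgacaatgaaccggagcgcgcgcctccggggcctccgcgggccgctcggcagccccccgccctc
The capitals mark short forms, 129 and 66 bases before the RefSeq start in Fos, 60 bases before it in Fosb and 200, 144, 123 and 111 bases before it in Nr4a2.

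Calls among partners of the module are given beside the shares over all tested genes. Of those, 1.18% passed by edgeR and 14.8% had an unadjusted p under 0.05. Of 18 genes for kinases that phosphorylate CREB or feed into it, regulatory subunits included, none passed by edgeR. Of these 18, 2 had an unadjusted p under 0.05, and the median log2 fold change was 0.025. Among them Prkar1b, a regulatory subunit of protein kinase A, and Camk2a, a calcium-dependent kinase, had log2 fold changes of 0.11 and 0.15 (edgeR adjusted p 0.297 and 0.323). Without knockout replicate 3 both had 0.068. Prkaca, a catalytic subunit of protein kinase A, had 0.033 over all libraries. Without knockout replicate 3, Rps6ka1, an RSK kinase, passed as higher (log2 fold change 0.28, edgeR adjusted p 0.0209). Its level there was 13.6 CPM, against 42.9 to 50.4 CPM in the other knockout brains and 35.5 to 42.7 CPM in wildtype brains.

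Of 16 tested genes of the LKB1 complex and the kinases related to the SIKs, 3 had an unadjusted p under 0.05. The list's median log2 fold change was 0.0009. By edgeR 1 of the 16 fell and none rose. The 1 was Nuak1, a kinase of the same family that LKB1 also activates. It had 74.7, 79.8, 89.1, 82.0 and 91.6 CPM in knockout replicates 1 to 5, against 107.0, 109.4, 109.1, 105.1 and 102.8 CPM in wildtype replicates 1 to 5. These groups did not overlap (log2 fold change -0.36, SE 0.053, edgeR adjusted p 0.00289), and Nuak1 passed in each fit that left out 1 library but not in the 7 shallower libraries alone (edgeR adjusted p 0.0865). Strada, a pseudokinase that activates LKB1, had 37.2 to 44.6 CPM in knockout and 28.9 to 38.2 CPM in wildtype brains, a log2 fold change of 0.25 that missed the threshold (edgeR adjusted p 0.114). Stk11, which encodes LKB1, had 0.063. Brsk1, which also had an unadjusted p under 0.05, had 0.13 (edgeR adjusted p 0.187).

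None of 7 calcineurin genes, 6 tested 14-3-3 genes and 7 tested class IIa deacetylase and MEF2 genes passed by edgeR, and none had an unadjusted p under 0.05. Log2 fold changes ran from -0.043 to 0.071, from -0.051 to 0.037 and from -0.095 to 0.11 in these 3 lists. Ppp3ca, the main calcineurin catalytic subunit, averaged 914.6 ± 84.9 CPM in knockout and 890.8 ± 42.2 CPM in wildtype brains (SD, n = 5 each). Of 14 tested genes for CBP, p300 and related bZIP factors none passed by edgeR, 3 had an unadjusted p under 0.05, and the median log2 fold change was -0.021. The values ran from -0.76 for Atf3 to 0.35 for Creb5 (edgeR adjusted p 0.229 and 0.505). Both had low levels: Atf3 averaged 0.88 CPM in knockout and 1.63 CPM in wildtype brains, and Creb5 3.82 and 3.00 CPM. Ep300, which encodes p300, lay between 115.1 and 118.4 CPM in knockout and between 121.2 and 136.0 CPM in wildtype brains without overlap, but with a log2 fold change of -0.13 did not pass (edgeR adjusted p 0.157).

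**Figure D5:**
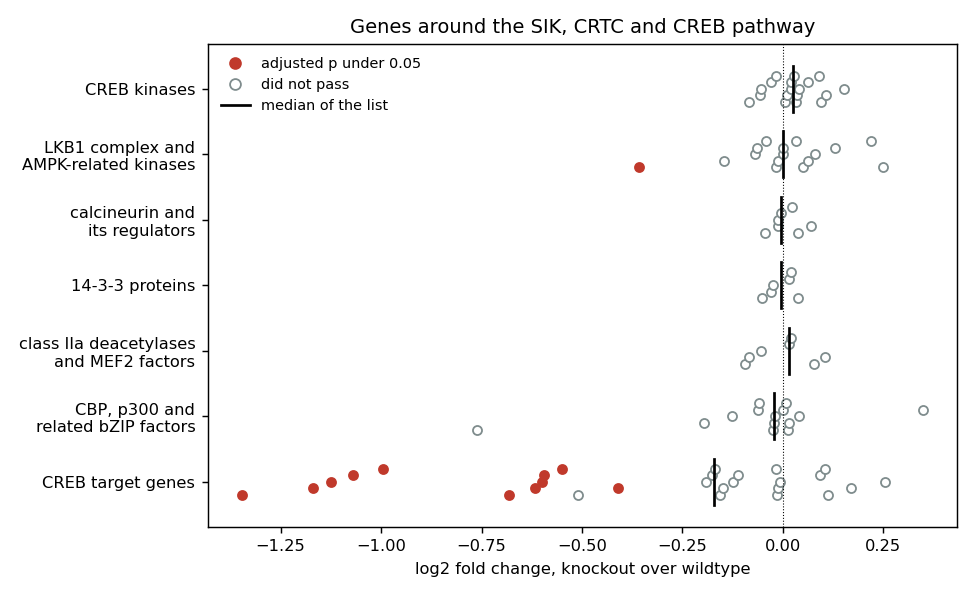
Log2 fold change, knockout over wildtype (horizontal axis), of each tested gene in 7 lists around the module, filled where the adjusted p was under 0.05, with the list median as a bar. The filled points are 11 of 28 CREB target genes and Nuak1 among the LKB1 complex and AMPK-related kinases.

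The values of the genes were also compared by depth and without knockout replicate 3. Within the 3 deeper libraries the log2 difference was -0.88 for Sik1, -0.38 for Sik2, -0.24 for Creb1 and -0.25 for Crem. Within the other 7 it was -0.76, -0.26, -0.28 and -0.37 in the same order. The deeper libraries are knockout replicates 2 and 4 and wildtype replicate 1, so their wildtype side has no replication. Without knockout replicate 3, which has few cerebellar transcripts, Sik1, Sik2 and Creb1 had log2 fold changes of -0.80, -0.34 and -0.27 and still passed (edgeR adjusted p 4.04e-05, 0.0104 and 0.0236).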

How the data were processed

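Whole brains of 5 Abcc5 knockout and 5 wildtype mice were sequenced as polyadenylated RNA. The authors deposited whole-number counts per Ensembl gene and library, and the submitters' processing notes name TopHat2 2.0.6, HTSeq, edgeR and limma, without settings, strand or build. Beside the counts the authors deposited their own comparison, with log2 fold changes and adjusted p-values, of which 629 and 8 cells hold damaged numbers and were skipped. Per-library values in 10 more columns were left unused.

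The counts went into edgeR 4.0.16 (R 4.3.3): filterByExpr (minimum count 10, minimum total 15), TMM scaling over full library totals, and a quasi-likelihood fit with genotype as its term, adjusted by Benjamini-Hochberg over 14526 genes. The common biological coefficient of variation was 0.071. SEs and 95% intervals were derived from the F statistic. Log2 CPM used a prior count of 2. Ratios were tested by exact permutation. Replicates of a group differed by a chi-square per degree of freedom of 1.29 to 12.1, above counting error.

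The 9 genes and all lists were chosen with earlier results of these data known. Named genes were the 9, Abcc5, the 5 most like Sik1 and, per list, called genes, the 2 smallest p-values and the 2 highest means. Rps6ka1, Prkaca, Stk11, Ppp2r1b, Atf3, Creb5 and, apart from Scg2, the CREB target genes that did not pass were added after their values were seen. Mef2b had no row under that symbol and Atf7 headed 2 rows, so both were left out. The fit was tested on data simulated from each gene's mean level. These held no library like knockout replicate 3, so the test does not cover the effect of such a library. Alternatives were DESeq2 size factors, no count filter, the replicate number as a block, depth class as a term, the 7 shallower libraries alone, each library left out, DESeq2 1.42.0, limma-voom (limma 3.58.1) and, for ratios, a prior count of 0.5.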

Additional observations from a re-analysis of the deposited data

Results flagged for a closer look

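Among 46 genes and ratios, each checked in both groups of 5 (92 checks), 5 showed 1 brain far from the other 4 of its group, by a gap over 0.71 of the group's range, and chance gives about 1 in 20. Sik1 was 17.2 CPM in knockout replicate 5, against 11.9 to 13.3 CPM in the other knockout brains. Without that library the log2 fold change of Sik1 was -0.90. Camk2a was 2545 CPM in knockout replicate 3, against 1899 to 1983 CPM in the others, and Snrk was 138.9 CPM there, against 198.4 to 219.9 CPM. That library is the one with few cerebellar transcripts. In wildtype replicate 1 Ywhag was 1036 CPM, against 964.1 to 977.5 CPM in the other wildtype brains, and Mef2d was 258.0 CPM, against 225.6 to 232.8 CPM.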

How the results depend on the processing

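Sik1 kept its direction and passed in all 17 alternatives run, and none of the 9 genes changed sign in any of them. Creb1 missed the threshold with the replicate number as a block (log2 fold change -0.29, edgeR adjusted p 0.0644). The labels do not say whether the numbers pair the brains. Same-numbered deviations correlated by -0.138 to 0.0893, which cannot exclude a pairing. In the 7 shallower libraries alone, Sik2 (-0.26, adjusted p 0.248) and Creb1 (-0.28, adjusted p 0.19) did not pass, leaving 1 of the 9 genes called, 4 CREB targets (Arc, Nr4a1, Nr4a3 and Per1) and 0 LKB1-related kinases. With 1 library left out, Sik2 ran from -0.37 to -0.29, Creb1 from -0.33 to -0.25, Sik3 from -0.073 to -0.025, Crtc2 from -0.104 to -0.026, calls among the 9 from 1 to 3, among CREB targets from 8 to 14 and among CREB kinases from 0 to 1. The ratio of Sik1 to Sik2 was -0.49 in the shallower libraries (exact permutation adjusted p 0.0857) and -0.49 in same-numbered pairs (adjusted p 0.0938). That of Sik1 to Sik3 was -0.71 and -0.75 there, with the same adjusted p-values, and neither design can reach 0.05. Over all genes, 171 calls (31 higher, 140 lower) became 90 (8 and 82) under the block, 31 (5 and 26) in the shallower libraries and 259 by DESeq2 (50 higher). The depth term gave 48 higher. With 1 library left out they ran from 76 to 341, higher from 8 to 93 and lower from 67 to 248. These upper ends all came from the fit without knockout replicate 3, the library with few cerebellar transcripts. The 14 CREB targets and 1 CREB kinase came from that fit too. The alternatives were run for the 9 genes and 33 genes of the lists, and not in full for Abcc5, the genes most like Sik1 or the other genes given values. Among those run, 6 changed sign in at least 1 alternative: without 1 library Ppp3ca ran from -0.01 to 0.083, Ppp3r1 from -0.044 to 0.078, Ywhag from -0.004 to 0.04, Ywhaz from -0.072 to 0.007, Mef2c from -0.075 to 0.165 and Scg2 from -0.041 to 0.007. In the shallower libraries Ywhaz was 0.005 and Scg2 0.024, and with the depth term Scg2 was 0.01. The cause of these shifts was not tested.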
